A study of Caenorhabditis elegans with 2 samples.

Results

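The genes for proteins of the cytosolic ribosome of Caenorhabditis elegans are described here, 81 of the 19973 protein-coding genes on the nuclear chromosomes of the WBcel235 annotation. They were chosen by symbol: rpl- or rps- followed by a number, with any suffix, and the 3 stalk genes rla-0, rla-1 and rla-2. Of these members 47 are genes of the large subunit, 31 of the small subunit and 3 of the stalk. The other 19892 protein-coding genes served as the background.

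The material was whole larvae at the L2 stage, both sexes mixed, of the strain OP75, whose genotype is unc-119(ed3) III; wgIs75. These animals stably express the transcription factor ELT-3 with GFP-FLAG at its C terminus, and sonicated chromatin was recovered by immunoprecipitation and sequenced (ChIP-seq). The labels give 1 untreated group of 2 biological replicates, with no word on the promoter of the transgene, on larval age in hours or on how the cultures were kept apart. Whole animals were used, so signal of the hypodermis cannot be told apart from signal of other tissues, no control library was analysed here, and no comparison between conditions exists.

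The deposited data were lists of 30000 regions, 1 per replicate and 1 in which the replicates are pooled, which hold peaks together with background and were all made against the same control alignment. Each list has regions of 1 width, 350 bp in the pooled list, 356 bp in replicate 1 and 370 bp in replicate 2, and the summit is the centre of the region. The authors' signal value, whose scale is not stated, was used to rank regions within a list, with rank 1 the highest. It had a median of 16.4 in the pooled list, 9.86 in replicate 1 and 9.53 in replicate 2, and the 1000th region had 28.4, 17.4 and 17.3. A q-value under 0.05 was given to 15 regions of the pooled list, 0 of replicate 1 and 15 of replicate 2, so most of the ranks below belong to regions that would not pass such a threshold. A region was given to a gene when its summit lay between 1000 bp upstream of an annotated transcript start and the gene end. Sequencing depth is unknown from these files, and all intervals below are 95% intervals that cover the counting of genes or regions alone.

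The cytosolic ribosome translates messenger RNA. Its small subunit reads the message, its large subunit joins the amino acids, and the acidic stalk proteins of the large subunit recruit the translation factors. Ribosomal protein genes are short, compact and among the most strongly transcribed genes of a growing larva. ELT-3 is a GATA factor best known for its role in the hypodermis, the epithelium that secretes the cuticle, and GATA factors bind the letters GATA, often as TGATAA or AGATAA.

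The sequences around the highest pooled summit of 6 members are shown because they carry the highest pooled regions among the members on chromosomes II, III, IV, V and X, and they show which letters lie under the signal. Each is 201 bases of the RefSeq WBcel235 genome (ce11), centred on the summit and read 5′ to 3′ in the direction of the gene. Capitals mark GATA, or TATC where it lies on the opposite strand, and a run of 10 letters that rpl-3 and rpl-15 share. The rpl-3 sequence covers chrIII:3867445-3867645 on the plus strand, that of rpl-12 chrIV:13239996-13240196 on the minus strand, and that of rpl-20 chrIV:4749181-4749381 on the minus strand. The rpl-15 sequence covers chrIV:654817-655017 on the minus strand, that of rpl-10 chrII:8142988-8143188 on the plus strand, and that of rpl-33 chrII:7105824-7106024 on the plus strand.
rpl-3: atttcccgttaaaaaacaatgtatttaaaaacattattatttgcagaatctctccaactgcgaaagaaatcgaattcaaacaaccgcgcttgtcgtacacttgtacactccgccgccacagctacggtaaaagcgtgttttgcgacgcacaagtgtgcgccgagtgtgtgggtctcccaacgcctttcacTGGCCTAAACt
rpl-12: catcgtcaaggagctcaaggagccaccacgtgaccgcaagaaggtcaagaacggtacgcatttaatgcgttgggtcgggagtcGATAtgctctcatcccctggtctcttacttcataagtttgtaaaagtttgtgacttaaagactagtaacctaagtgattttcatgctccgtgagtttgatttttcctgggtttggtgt
rpl-20: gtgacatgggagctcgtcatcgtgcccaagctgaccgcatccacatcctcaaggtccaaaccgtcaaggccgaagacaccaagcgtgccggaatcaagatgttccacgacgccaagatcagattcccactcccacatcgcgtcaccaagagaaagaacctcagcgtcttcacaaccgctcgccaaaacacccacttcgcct
rpl-15: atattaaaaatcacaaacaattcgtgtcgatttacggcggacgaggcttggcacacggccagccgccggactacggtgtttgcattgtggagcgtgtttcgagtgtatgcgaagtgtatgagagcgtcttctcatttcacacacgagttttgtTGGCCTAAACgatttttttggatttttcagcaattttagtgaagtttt
rpl-10: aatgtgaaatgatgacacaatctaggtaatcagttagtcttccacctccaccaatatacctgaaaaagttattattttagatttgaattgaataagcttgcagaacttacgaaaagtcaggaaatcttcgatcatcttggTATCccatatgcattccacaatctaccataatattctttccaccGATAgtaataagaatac
rpl-33: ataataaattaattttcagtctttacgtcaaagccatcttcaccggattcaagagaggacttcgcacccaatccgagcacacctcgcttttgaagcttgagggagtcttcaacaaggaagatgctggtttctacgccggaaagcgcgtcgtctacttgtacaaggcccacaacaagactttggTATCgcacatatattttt

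None of these 6 sequences holds TGATAA or AGATAA on either strand. The bare letters GATA occur 0 times in the rpl-3, rpl-20 and rpl-15 sequences, once each in those of rpl-12 and rpl-33, and 2 times in that of rpl-10. The summits of rpl-20 and rpl-33 lie in coding exons, and 56.2% and 44.3% of the bases shown around them are G or C. The summits of rpl-3 and rpl-15 lie upstream of their genes, with 45.3% and 43.8%. Members on chromosome I are not among the sequences shown. There the highest pooled region of rpl-13 (rank 664) held neither TGATAA nor AGATAA, and that of rpl-1 (rank 1305) held 1 TGATAA.

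The gene with the highest region among the members was rpl-3, which encodes a core protein of the large subunit near the site of peptide bond formation, as known from yeast. The gene occupies 3867854 to 3869587 on the plus strand of chromosome III. Its region at 3867370 to 3867719 had a pooled signal value of 74.4 and rank 5, with its summit 309 bp upstream of the nearest transcript start. Replicate 1 gave 36.2 and rank 4, and replicate 2 gave 38.2 and rank 9. Both replicates were thus high at this point, and their summits lay 17 bp apart. The q-value was 0.0345 in the pooled list and in replicate 2, and 0.0698 in replicate 1. This region lay in the window of no other protein-coding gene. It was the only member region in the authors' list of 33 regions that passed their threshold on the irreproducible discovery rate (IDR), where 22 of 19892 other genes had one (0.111%). Of the 33 IDR regions, 31 held GATA within 100 bp of the summit, and the rpl-3 region was 1 of the 2 that did not.

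A further region of rpl-3 lay inside the gene, 579 bp downstream of the nearest start, in an exon part outside the coding sequence. The gene is known to make alternatively spliced transcripts that are removed by nonsense-mediated decay. That region ranked 1758 in replicate 1 with a signal value of 16.0, ranked 23344 in the pooled list with 14.0, and had no counterpart in replicate 2. Another region of replicate 1, 808 bp downstream of a start, ranked 25920. The upstream region was therefore the only part of rpl-3 at which both replicates had a summit.

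**Figure D1:**
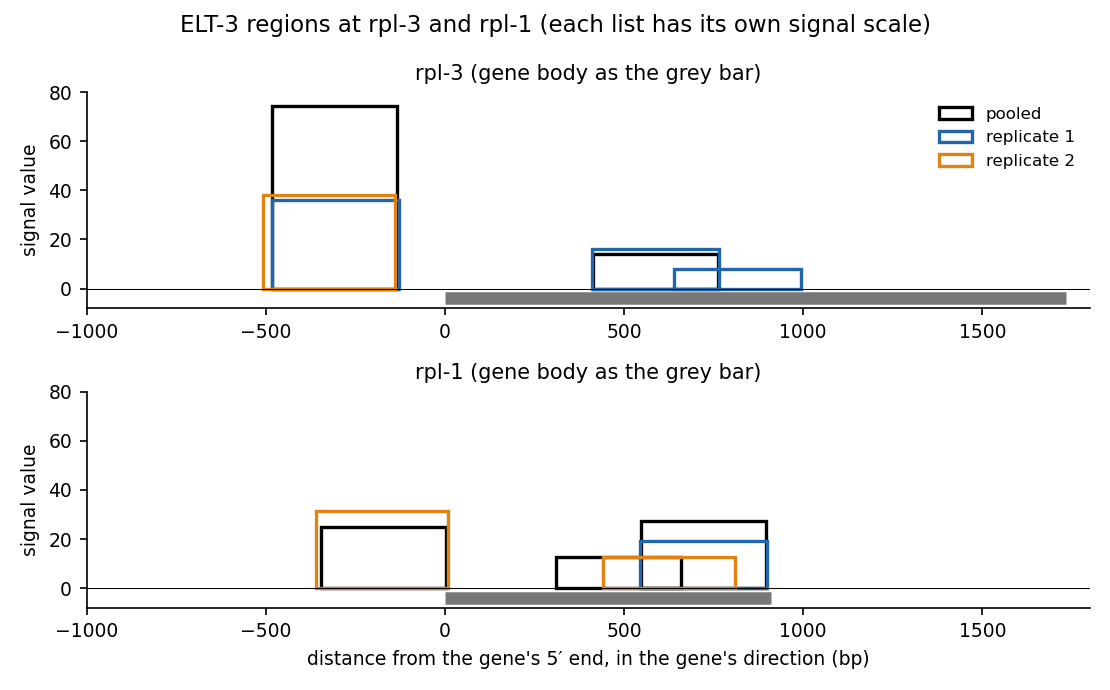
Regions of the pooled list and of each replicate at rpl-3 and rpl-1, drawn at their deposited width, with distance from the gene's 5′ end (bp) on the horizontal axis and the authors' signal value on the vertical axis. At rpl-3 all 3 lists have a region upstream, with values of 74.4, 36.2 and 38.2, while at rpl-1 the upstream region is in the pooled list and replicate 2 and not in replicate 1. Signal values of different lists are on separate scales.

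The gene rpl-1 encodes the protein of the mobile L1 arm of the large subunit, which contacts the departing transfer RNA. It had a region in the 1000 highest of both replicates, but at different points of the gene. In replicate 2 the highest region lay 177 bp upstream of the start, with a signal value of 31.5, rank 15 and q of 0.0345. The pooled list had it at 2876306 to 2876655 on chromosome I, with 25.1 and rank 2212. Replicate 1 had no summit within 150 bp of this point, and its nearest lay 899 bp from the summit of replicate 2. In replicate 1 the highest region lay in a coding exon 360 bp downstream of the nearest start, with a signal value of 19 and rank 543. Replicate 2 had a summit 98 bp from there, with 12.9 and rank 4949, and the pooled region had 27.2 and rank 1305. The upstream region held 1 AGATAA and lay also in the window of Y71F9AL.9, and the exon region held 1 TGATAA and lay also in that of Y71F9AL.12. Regions are given to genes by position, so a region in 2 windows cannot be assigned to either gene.

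The members that reached the 1000 highest regions in both replicates were rpl-1 and rpl-3, 2 of 81 (2.47%, Wilson interval 0.68 to 8.56%), against 0.744% of other genes, a value inside that interval. Of the 81 members, 4 had a region in the 1000 highest of the pooled list (4.94%, Wilson interval 1.94 to 12%), against 4.07% of other genes. In replicate 1 there were 5 such members (6.17%, 2.67 to 13.6%) against 4.13%. In replicate 2 there were 4 (4.94%, 1.94 to 12%) against 4.11%. The share of members with a high region was thus near the background in each list, with windows shorter than those of other genes. Counted by region, 6.56% of the pooled regions at members were in the 1000 highest (2.58 to 15.7%), against 3.33% of those at other genes, and in replicate 2 it was 6.58% (2.84 to 14.5%) against 3.34%. In replicate 1 it was 9.26% (4.02 to 19.9%) against 3.39%, with the lower bound above the other genes. Per length, high regions numbered 28.4 per Mb of member window in the pooled list (Poisson interval 7.73 to 72.6), against 10.7 per Mb, and 35.5 in each replicate (11.5 to 82.7), against 10.9 and 10.7, with the lower bounds of the replicates just above the other genes. The high regions of both replicates include those of rpl-1 and rpl-3, which were named in advance with earlier results of these data known. The shares and densities of high regions are therefore not independent of that choice. These densities rest on 4 or 5 regions a list. Outside chromosome I they were 30.9 per Mb in the pooled list (3 regions, 6.37 to 90.2), 41.2 in replicate 1 (4 regions, 11.2 to 105.4) and 10.3 in replicate 2 (1 region, 0.26 to 57.3), against 8.21, 8.83 and 8.75, and only the interval of replicate 1 lies above the other genes. All 8 members that reached the 1000 highest of any list were large subunit genes, namely rpl-1, rpl-3, rpl-10, rpl-12, rpl-13, rpl-20, rpl-27 and rpl-33. The small subunit had 0 of 31 in each list (0 to 11.0%) and the stalk 0 of 3 (0 to 56.1%), and the interval of the large subunit in the pooled list, 4 of 47 (8.51%, 3.36 to 19.9%), overlaps both.

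**Figure D2:**
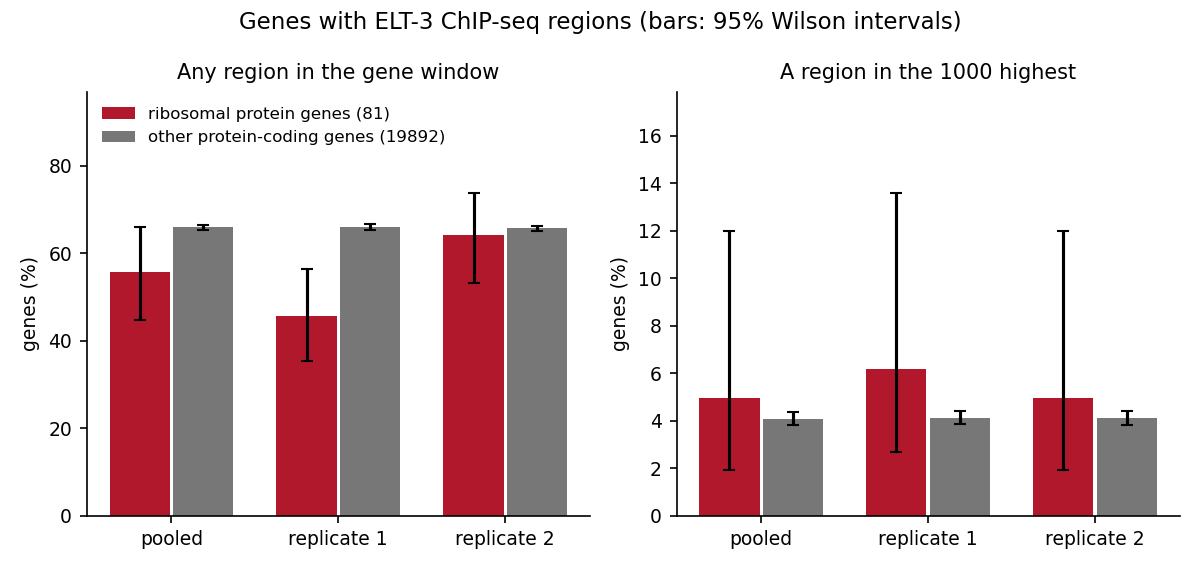
Share of the 81 ribosomal protein genes and of the 19892 other protein-coding genes with any region in the gene window (left) and with a region in the 1000 highest (right), in percent of genes for each list, with bars for 95% Wilson intervals. Members with any region make up 55.6%, 45.7% and 64.2% in the pooled list, replicate 1 and replicate 2. Other genes with any region make up 65.9%, 65.9% and 65.7%, and have longer windows (median 3034 bp against 1754 bp). In all 3 lists the interval of the members with a high region spans the background of 4.07 to 4.13%.

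Among the other large subunit genes, rpl-12 was the one with both replicates moderately high at the same point. It encodes a protein at the base of the stalk, and it too is known to make transcripts that nonsense-mediated decay removes. Its region at 13239921 to 13240270 on chromosome IV lay inside the gene in an exon part outside the coding sequence, 216 bp before the nearest start of a protein-coding transcript. The pooled signal value was 36.8 with rank 129. Replicate 1 gave 17.1 and rank 1152, replicate 2 gave 16.2 and rank 1450, and the summits lay 66 bp apart. The region lay also in the windows of tag-115 and lin-54.

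The remaining high large subunit genes were high in 1 replicate. At rpl-13 a region 889 bp upstream of the start, inside the neighbour tppp-1, ranked 664 in the pooled list with 29.8 and 265 in replicate 2 with 20.6, and replicate 1 had none there. A second region of rpl-13, in the gene, ranked 581 in replicate 2 with 18.6 and 5044 in replicate 1 with 13.1, with summits 17 bp apart, and 1447 in the pooled list. The coding exon region of rpl-20 at 4749106 to 4749455 on chromosome IV ranked 515 in replicate 1 with 19.2 and 19238 in replicate 2 with 8.68. Its pooled rank was 819 with 29.2, and the high counterpart of that region was in replicate 1 alone.

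At rpl-33 the coding exon region at 7105749 to 7106098 on chromosome II ranked 2787 in the pooled list with 24.1 and 296 in replicate 1 with 20.6. The single rpl-33 region of replicate 2 lay elsewhere, 374 bp upstream of the start, with 10.3 and rank 11748. At rpl-10, which encodes a protein that joins the large subunit late in its assembly, as known from yeast, a region 793 bp upstream of the start at 8142913 to 8143262 on chromosome II ranked 164 in replicate 1 with 22.1 and 1552 in the pooled list with 26.5. That region lay inside ints-11, and replicate 2 had no region in the rpl-10 window. For rpl-27 the order was the opposite, with the best regions of the lists at different points. Replicate 2 had rank 782 (17.9, 923 bp upstream and inside C53H9.2), with no summit of the other lists within 150 bp. The best rank of replicate 1 was 16602, in a coding exon 8 bp downstream of the start. The best pooled rank, 11801, lay 731 bp upstream, 11 bp from another replicate 2 region of rank 5506.

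The upstream region of rpl-15, at 654742 to 655091 on chromosome IV, ranked 1429 in the pooled list with 26.8. Replicate 1 had a summit 231 bp upstream with rank 7414, and replicate 2 had one 320 bp upstream with rank 14984, and these lay 89 bp apart. This was a pooled region of fairly high rank from replicate regions of middling rank. Of the other large subunit genes among the 15 with the highest pooled signal, rpl-24.2 had best ranks of 2964 in the pooled list, 3553 in replicate 1 and 8185 in replicate 2. For rpl-42 they were 3350, 3060 and 20783, and for rpl-4, whose protein lines the exit tunnel of the nascent chain, 5437, 7399 and 7481.

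The small subunit genes had no region in the 1000 highest, but not lower regions throughout: the median rank of their regions was 11791 in replicate 1 and 16838 in replicate 2, against 15985.5 and 13824 for the large subunit. Their highest in the pooled list were at rps-10, with best ranks of 3562 in the pooled list, 11869 in replicate 1 and 1172 in replicate 2, and at rps-5, with 6176, 10230 and 15540. At both genes the pooled summit lay in a coding exon. At rps-16, named here for a region at its window's edge, replicate 2 had a coding exon region of rank 1729. A pooled summit of rank 1514 lay 121 bp from it, and a replicate 1 summit of rank 27737 lay 134 bp from it. Both fell outside the rps-16 window, so that gene counts as having a region in replicate 2 alone. The windows of rps-10 and its neighbour rpl-24.1 overlap, so regions between them count for both members. Any pooled region was found at 14 of 31 small subunit genes (45.2%, 29.2 to 62.2%) and at 28 of 47 large subunit genes (59.6%, 45.3 to 72.4%), with overlapping intervals. All 3 stalk genes had a region in every list. For rla-1, encoding an acidic stalk protein, the best ranks were 3712 in the pooled list, 10914 in replicate 1 and 5618 in replicate 2. For rla-0, encoding the stalk base protein, they were 4949, 4500 and 20637, and for rla-2, the other acidic stalk protein, named here to complete the stalk, 14307, 7526 and 10256.

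**Figure D3:**
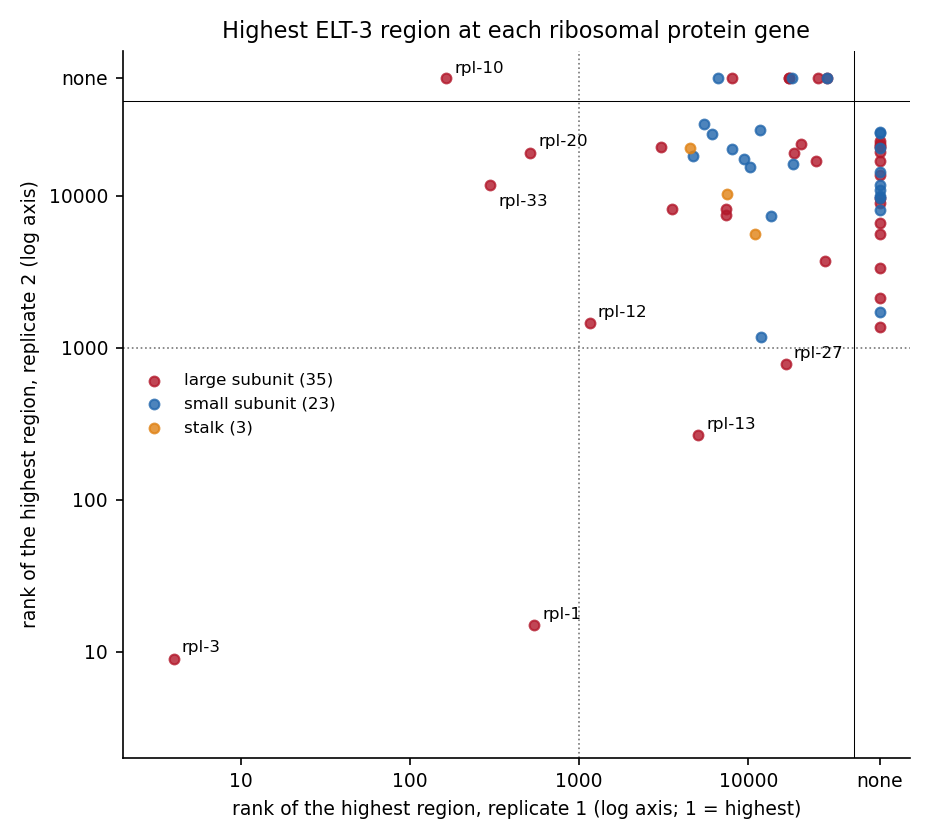
Rank of the highest region at each of the 61 members with a region in either replicate, replicate 1 on the horizontal and replicate 2 on the vertical log axis, coloured by subunit, with rank 1 the highest and "none" for no region in that list. Only rpl-3 (ranks 4 and 9) and rpl-1 (543 and 15) lie inside both dotted lines at rank 1000, with rpl-12 (1152 and 1450) next to their crossing, and 24 members have a region in replicate 2 alone (29.6%, against 15.7% of other genes) and 9 in replicate 1 alone (11.1%, against 15.9%).

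Over all 81 members, 45 had any region in the pooled list (55.6%, 44.7 to 65.9%), against 65.9% of other genes. In replicate 1 there were 37 (45.7%, 35.3 to 56.5%) against 65.9%, and in replicate 2 there were 52 (64.2%, 53.3 to 73.8%) against 65.7%. The members are shorter, with a median gene length of 754 bp against 2034 bp, and so have shorter windows, with a median of 1754 bp against 3034 bp. Per length of window the order turned: the member windows held 4.32 pooled regions per 10 kb (Poisson interval 3.31 to 5.56) against 3.23 in other genes. In replicate 1 the density was 3.83 (2.88 to 4.995) against 3.21, and in replicate 2 it was 5.39 (4.24 to 6.74) against 3.21. The interval includes the value of other genes in replicate 1 and lies above it in the other 2 lists. Outside chromosome I, which holds 25 of the 81 members, the pooled density was 3.50 (2.42 to 4.89) against 3.11 in other genes there, and that interval includes the background. There replicate 1 had 3.40 (2.34 to 4.77) against 3.12, which also includes it, and replicate 2 had 4.73 (3.46 to 6.31) against 3.10, which does not. The median rank of the member regions was 12609, 11791 and 14491.5 in the pooled list, replicate 1 and replicate 2, against 14875.5, 14820.5 and 14854 for regions of other genes.

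Regions in all 3 lists were found at 26 members (32.1%), against 46.2% of other genes, and 28 had a region in both replicates (34.6%), against 50% of other genes. A region in replicate 2 alone was found at 24 members (29.6%) and in replicate 1 alone at 9 (11.1%), against 15.7% and 15.9% of other genes. Another 20 members had no region in any list (24.7%), against 16.8% of other genes. Of the large subunit these were rpl-11.1, rpl-14, rpl-21, rpl-23, rpl-25.2, rpl-26, rpl-29, rpl-32, rpl-36, rpl-37, rpl-38 and rpl-41.2. Of the small subunit they were rps-1, rps-7, rps-9, rps-14, rps-15, rps-21, rps-25 and rps-28. A gene without a region in these lists lay below their last entry, at a signal value of 12.6 in the pooled list, and is not shown to lack ELT-3. These shares are not corrected for the members' shorter windows, with a median of 1754 bp against 3034 bp. Mitochondrial ribosomal protein genes, with a median of 2125 bp, had 28.6% in all 3 lists and 38.6% in both replicates. Of them 31.4% had no region in any list, and 14.3% had one in replicate 2 alone.

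Where in the gene the regions lay differed between the replicates. In the 1000 bp upstream of the gene, 12 members had a region in replicate 1 (14.8%, 8.68 to 24.1%) and 35 in replicate 2 (43.2%, 33 to 54.1%). The same genes were counted in both lists and each list comes from a single library, so these intervals do not measure the difference between replicates. Other genes had 24.9% and 25.9%, so the members lay below them in replicate 1 and above them in replicate 2, and both intervals leave out the value of other genes. Among the 56 members outside chromosome I the counts were 7 (12.5%, 6.19 to 23.6%) and 23 (41.1%, 29.2 to 54.1%), against 24.2% and 25.3%. The pooled list gave 22 members (27.2%, 18.7 to 37.7%) against 25.2%. An upstream region in both replicates was found at 6 members (7.41%), in replicate 2 alone at 29 (35.8%), in replicate 1 alone at 6 (7.41%) and in neither at 40 (49.4%). For other genes these shares were 9.53%, 16.3%, 15.3% and 58.8%. The large and small subunit genes had more in replicate 2. In replicates 1 and 2 there were 8 and 23 of 47 large subunit genes (17.0% and 48.9%) and 1 and 10 of 31 small subunit genes (3.23% and 32.3%). The stalk genes did not, with rla-1 and rla-2 having an upstream region in both replicates and rla-0 in replicate 1 alone. Of the 39 upstream regions of replicate 2 at members 4 were in its 1000 highest (10.3%, 4.06 to 23.6%), against 3.22% of those at other genes, and their median rank was 13759 against 14934. In replicate 1 the share was 2 of 12 (16.7%, 4.7 to 44.8%), against 2.83%. Outside chromosome I it was 1 of 25 in replicate 2 (4%, 0.71 to 19.5%), against 2.6%, and 2 of 7 in replicate 1 (28.6%, 8.22 to 64.1%), against 2.3%. The high upstream regions include that of rpl-3 in both replicates and that of rpl-1 in replicate 2. The 1 of 25 is the rpl-3 region. As these genes were named with earlier results known, the shares of high upstream regions are not independent of that choice.

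**Figure D4:**
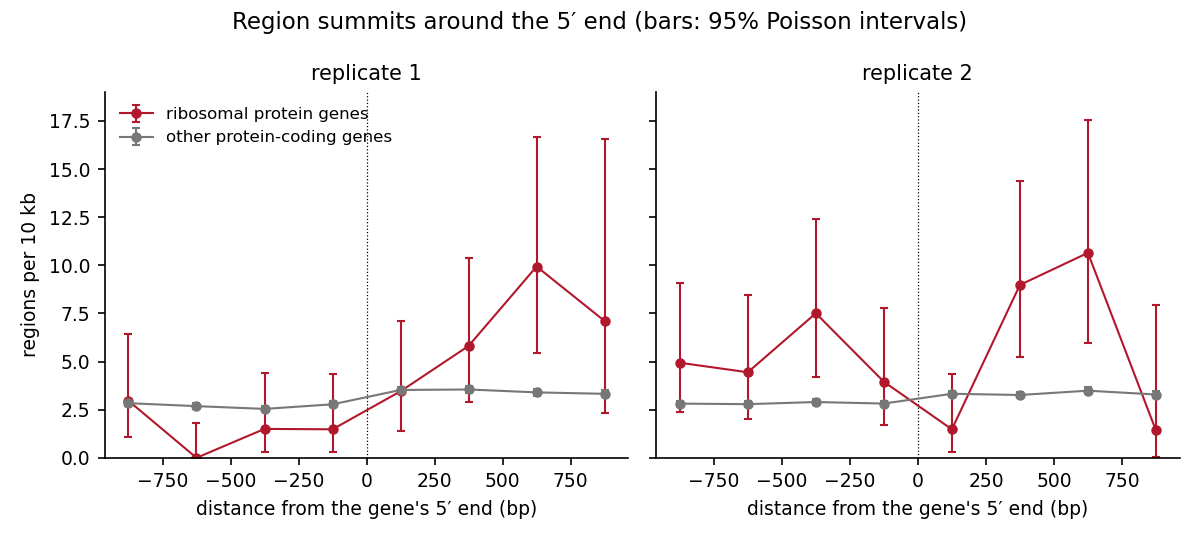
Density of region summits, in regions per 10 kb, in steps of 250 bp from 1000 bp before to 1000 bp after the 5′ end of the gene and not past its end, for each replicate, with bars for 95% Poisson intervals. The interval of the members (red) lies above the other genes (grey) at 500 to 749 bp inside the gene in both replicates, and at 250 to 499 bp inside and 500 to 251 bp upstream in replicate 2.

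The profile along the gene shows the same difference in finer steps. From 750 to 501 bp upstream of the 5′ end replicate 1 had 0 regions at the members (0 per 10 kb, up to 1.82) and replicate 2 had 9 (4.44, 2.03 to 8.44), against 2.69 and 2.79 in other genes. From 500 to 251 bp upstream the density was 1.5 per 10 kb in replicate 1 (3 regions, 0.310 to 4.39) and 7.51 in replicate 2 (15 regions, 4.20 to 12.4), against 2.54 and 2.90 in other genes. At 250 to 499 bp downstream the density was 5.81 in replicate 1 (11 regions, 2.9 to 10.4) and 8.98 in replicate 2 (17 regions, 5.23 to 14.4), against 3.55 and 3.26. At 500 to 749 bp downstream the density was 9.94 in replicate 1 (14 regions, 5.43 to 16.7) and 10.6 in replicate 2 (15 regions, 5.96 to 17.6), against 3.40 and 3.49. In the first step inside the gene there were 7 and 3 regions (3.46 and 1.48 per 10 kb), against 3.52 and 3.33. From 750 to 999 bp there were 5 and 1 (7.11 and 1.42), against 3.33 and 3.29, and the members' intervals at both steps include the other genes.

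Within the genes the regions lay mainly in coding exons. Member coding exons held 7.58 pooled regions per 10 kb (30 regions, 5.12 to 10.8) against 4.46 in other genes, 7.58 against 4.39 in replicate 1, and 6.07 (3.89 to 9.03) against 4.20 in replicate 2. The lower bound lay above the other genes in the pooled list and in replicate 1 and below them in replicate 2. Outside chromosome I the members' values were 5.13 (2.81 to 8.61), 6.23 (3.63 to 9.97) and 4.76 (2.54 to 8.15), against 4.29, 4.29 and 4.04, and all 3 intervals include the value of the other genes. Counted by gene, 28.4%, 32.1% and 25.9% of the members had a coding exon region, below the 37.9%, 37.7% and 36.3% of other genes, whose coding exons are longer. The median G+C content of the 201 bases around the summit was 49.3%, 49.3% and 47.0% for member coding exon regions, against 41.8%, 41.3% and 40.8% for those of other genes. Outside chromosome I, where the densities were lower, it was 50.5%, 49.8% and 46.3%. The part of base composition in the densities was not tested. Member introns held 2.90 (0.943 to 6.78), 3.49 (1.28 to 7.59) and 5.81 (2.785 to 10.7) regions per 10 kb. These came from 5, 6 and 10 regions, against densities of 2.70, 2.73 and 2.74 in other genes. The interval lies just above the other genes in replicate 2 and includes them in the other lists. Outside chromosome I replicate 2 had 3.49 from 4 intron regions (0.952 to 8.95), against 2.65, which its interval includes. This split by gene part was chosen after values of these lists had been seen.

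**Figure D5:**
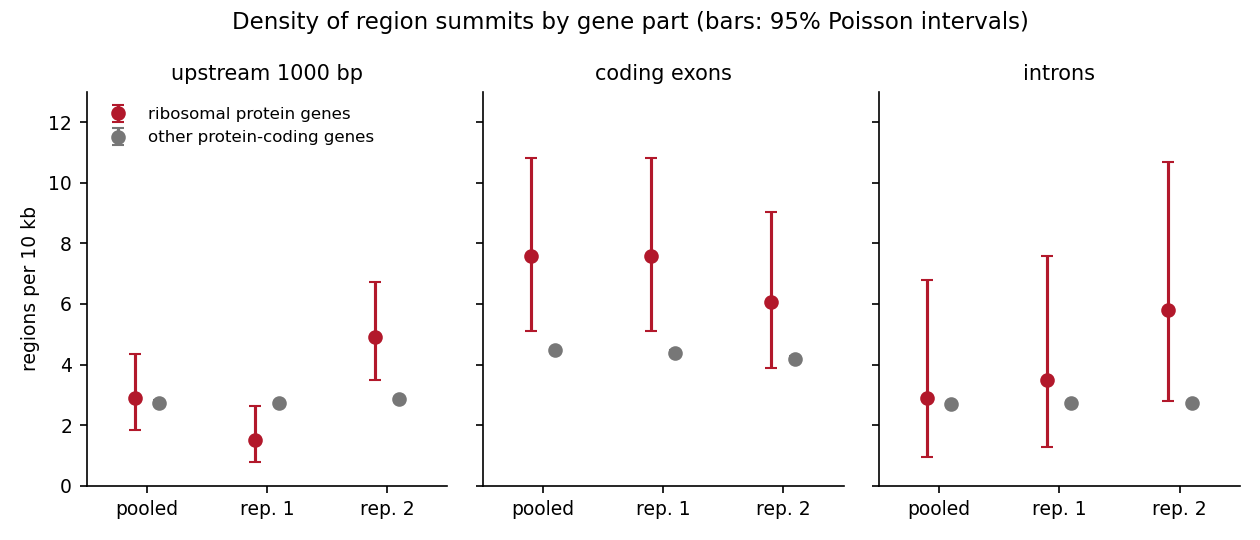
Region summits per 10 kb in the 1000 bp upstream, in coding exons and in introns of the ribosomal protein genes (red) and of other protein-coding genes (grey), for the pooled list and each replicate, with bars for 95% Poisson intervals. Upstream density of the members is 1.52 in replicate 1 and 4.92 in replicate 2, on either side of the other genes, and coding exon density is 7.58, 7.58 and 6.07, above the other genes' 4.46, 4.39 and 4.20.

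Summits of both replicates lay within 150 bp of each other at 16 of 81 members (19.8%, 12.5 to 29.7%), against 24.7% of other genes. Counted by region, 19 of the 54 replicate 1 regions at members had a replicate 2 summit that near (35.2%, 23.8 to 48.5%), against 24.0% of those at other genes, and the lower bound is about the value of the other genes. Among the members both summits were in the 5000 highest at rpl-1, rpl-3 and rpl-12, 3 of 81 (3.7%, 1.27 to 10.3%), against 2.18% of other genes. The lists share a control alignment, and its part in shared summits was not tested. Over the 28 members with a region in both replicates, Spearman's rho of the best ranks was 0.103, and -0.1 over the 26 without rpl-1 and rpl-3. Over 9948 other genes it was 0.192, and these values are descriptions across genes of the same libraries.

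Most member regions were near other genes. Counted as pairs of a gene and a region in its window, 50 of 64 pooled pairs (78.1%) lay also in the window of another protein-coding gene, as did 39 of 54 (72.2%) in replicate 1 and 60 of 80 (75%) in replicate 2, against 21.5%, 21.2% and 21.3% of the pairs of other genes. The summit lay inside another gene for 15, 9 and 20 of the pairs (23.4%, 16.7% and 25%), against 11.9%, 11.8% and 11.5%. A tRNA, rRNA, snRNA or snoRNA gene lay within 200 bp of 6, 8 and 8 regions (9.84%, 14.8% and 10.5%), against 0.714%, 0.675% and 0.693%. All of the RNA genes found near member regions were snoRNA genes. How much of the member windows lies near a snoRNA gene or in another gene's window, with or without a region, is not given here. These shares may therefore describe the surroundings of the genes rather than the regions. The part of these neighbours in the regions' values was not tested. The snoRNA genes K11H12.12 and K11H12.13, for instance, lie near the coding exon region of rpl-15 that ranked 8300 in the pooled list.

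The letters TGATAA, searched on both strands within 100 bp of the summit, were found in 6 of the 61 pooled member regions (9.84%, 4.59 to 19.8%), against 16.1% of regions at other genes and 16.4% of all 30000 pooled regions. In the replicates the shares were 11.1% and 7.89%, against 16.4% and 17.6%. AGATAA was found in 14.8%, 11.1% and 14.5%, against 9.99% to 10.5% of regions at other genes. The shorter GATA, which both longer motifs contain, was found in 67.2%, 72.2% and 60.5%, against 71.1%, 71.1% and 72.3%. The interval for TGATAA includes the value of other genes in the pooled list and in replicate 1 (5.19 to 22.2%) and lies below it in replicate 2 (3.67 to 16.2%). The member regions were richer in G and C, with a median of 45.3% against 39.3% in the pooled list. The part of base composition in these shares was not tested.

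The run TGGCCTAAAC, in capitals in the rpl-3 and rpl-15 sequences, was noticed after those sequences had been seen, so its counts are descriptions. It was searched on both strands from 1000 bp upstream to 200 bp inside the 5′ end of every gene. It was found at 4 of 81 members (4.94%, 1.94 to 12%), at 24 of 19892 other genes (0.121%) and at 0 of 70 mitochondrial ribosomal protein genes. Those members were rpl-3, rpl-15, rpl-2 and rps-26, with the run 219, 288, 305 and 323 bp upstream and on the strand of the gene in all 4, and the first 2 had served to find it. Of these rpl-2 had no region in the pooled list or replicate 1 and a best rank of 21270 in replicate 2, and rps-26 had best ranks of 13599 in replicate 1 and 7367 in replicate 2 with none in the pooled list. The run lay within 100 bp of the summit in 8 of all 30000 pooled regions (0.0267%).

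Other genes of protein synthesis are given for comparison, as counts in the pooled list. Any region was found at 34 of 70 mitochondrial ribosomal protein genes (48.6%, 37.2 to 60.0%), which translate in the organelle, and 1 was in the 1000 highest. That gene, mrpl-15, ranked 585 in the pooled list, 622 in replicate 1 and 507 in replicate 2. Upstream regions were found at 17 of these 70 genes in replicate 1 and 22 in replicate 2, next to 12 and 35 of the 81 cytosolic members. Translation initiation factor genes had 25 of 32 (78.1%) with any region and aminoacyl-tRNA synthetase genes 27 of 32 (84.4%), against 65.9% of all genes outside the ribosomal list, with 1 each in the 1000 highest (3.12%, against 4.07%), eif-3.I at 857 and mars-1 at 722. Their windows have medians of 3185 and 4576 bp and held 3.93 (2.85 to 5.27) and 3.20 (2.39 to 4.2) regions per 10 kb, next to 3.23 in other genes and 4.32 in the members. Elongation factor genes had 4 of 6, ribosome biogenesis genes 5 of 8 and the further ribosome genes ubl-1, ubq-2 and rack-1 3 of 3, with 0 in the 1000 highest. Their best pooled ranks were 1936 at eef-1A.1, 1214 at ncl-1 and 15881 at ubl-1.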

How the data were processed

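The region lists, peaks together with background, that the authors deposited for ELT-3 ChIP-seq of 2 biological replicates were analysed in ce11, which is WBcel235. The deposited signal value is a score of the authors' peak caller against 1 control alignment, shared by all lists per the deposited file listing, and was used only for ranks within a list. The authors wrote each q-value as −log10, and it was converted back. The sources used here name no aligner, peak caller or IDR threshold, and depth is unknown.

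Gene models came from Ensembl release 115 and sequence from RefSeq WBcel235. The ce10 lists were not used, and 0 columns of other samples were left aside. Members and gene lists were chosen with earlier results of these data known. The split by gene part, the values outside chromosome I, the GATA letters and the shared run were chosen after values or sequences were seen. Named members were rpl-1 and rpl-3, the 15 with the highest pooled signal, any in the 1000 highest of a replicate, those with both replicates' summits within 150 bp and in the 5000 highest, and those with no region. Sequences are for rpl-3 and the 5 further members outside chromosome I with the highest pooled signal. With 1 group there is no test; shares have Wilson and densities exact Poisson intervals of 95%. Alternatives changed the upstream distance (500 and 2000 bp), the window, the number of high regions, the summit distance (50 and 300 bp), the motif, the ranking and the replicate used. Assignment of regions was tested on simulated data. Python 3.11.15, numpy 2.4.6, pandas 2.3.3, scipy 1.17.1 and matplotlib 3.10.9 were used.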

Additional observations from a re-analysis of the deposited data

How the results depend on the processing

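For the 81 members and for rpl-1 and rpl-3, 12 values were recomputed under 68 alternatives, and 51 stayed within 1.5 times the count, within the interval, or within the spread of the replicates. With a window from 1000 bp upstream to 200 bp inside transcript starts, 27 members had any pooled region (34.6% of other genes), 2 reached the 1000 highest in replicate 1 (1.29% of other genes), 4 had shared summits (8.62% of other genes) and the density was 2.94 per 10 kb, against 2.93 in other genes. Taking the 500 highest gave 2 members in the pooled list (2.47%, against 2.09% of other genes) and 3 in replicate 1 (3.7%, against 2.12%), and taking the 2000 highest gave 7 in the pooled list (8.64%, against 8.01%) and 8 in replicate 2 (9.88%, against 7.9%). Summits within 50 bp left 6 members (7.41%, against 13.4%). Searching GATA gave 67.2% of regions. Outside chromosome I replicate 2 had 1 member in the 1000 highest (rpl-3; 1.79%, against 3.32%), and 12 members had a pooled upstream region (21.4%, against 24.6%). Using single replicates in place of the pooled list, the best rank of rpl-1 ranged from 15 to 543 (1305 pooled), that of rpl-3 from 4 to 9 (5 pooled), and the members with an upstream region from 12 to 35 (22 pooled). For the ranks of 14 other named members, 22 of 41 alternatives stayed within the replicates' spread. Most of these alternatives were the replicate ranks that set the spread, so this count does not measure how stable a rank is. At rpl-27, for instance, a change from 11801 to 782 counted as within the spread. The spread is narrower than the gap between the 2 replicate ranks. At rpl-20, with replicate ranks of 515 and 19238, a change from 819 to 19238 counted as outside it. No paired analysis was possible because the labels define 1 group. Having 2 replicates without read totals limits every value, and low-ranked regions include background.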
